A study of Mus musculus with 7 samples.

Results

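The open chromatin of 2 male mouse embryonic stem cell samples was compared, both treated with doxycycline (dox) to switch on Xist from the X chromosome itself. They are 2 of the 7 samples of the series and are defined by genotype and treatment alone, though the comparison was taken up with earlier results of these data known. Both belong to a J1 line called TXY, whose single X carries a doxycycline-inducible Xist. In TXY WT the induced Xist is intact, and in TXY deltaRepA it lacks the A repeat (RepA). Each received 2 ug/mL doxycycline for 48 hours. The same 2 genotypes without doxycycline (no dox) served as the state before induction, and a female mESC line (F1216, from a 129S1 x Cast:EiJ cross) and wild-type neural progenitors (NPC, line C2, same cross) supplied independent sets of sites. No source used here says whether a TXY line is 1 clone, and since no RNA was measured, Xist induction itself was not checked.

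Xist is a long non-coding RNA that spreads in cis over the X chromosome from which it is transcribed and starts its silencing. The A repeat, a block of short repeated units near the 5′ end of the RNA, is known to be needed for silencing and much less for spreading. A male cell has 1 X and no second copy, so silencing by induced Xist acts on the only X that the cell has. ATAC-seq reads open chromatin from the places where Tn5 transposase inserts adapters, and promoters and enhancers appear in it as peaks.

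The WT list held 125498 peaks with dox and the deltaRepA list 142526, of which 1462 and 2442 were on chrX and 40 and 36 on chrY. Each condition was 1 list called on merged libraries, so no difference between the lines has a replicate check and no p-value is given. The intervals printed are 95% intervals for counting error alone, and chr1 to chr19 of each pair of lists gave the reference. The deposited fold and p-value of every peak allowed its summit height to be recovered, that is, the whole number of reads over its highest point as the peak caller counted them. The lists also gave the genome-wide background, in reads per base, which tracks depth. It was 2.14 in WT and 2.17 in deltaRepA with dox, a ratio of 0.985. By this measure the induced lists were close, but they differed in autosomal peak number and in the share of autosomal sites missing from each, both given below, and read totals were not used here. Without dox it was 3.81 and 2.01, a ratio of 1.89, so counts, shares and height ratios of the uninduced lists are read beside the autosomal values. This takes peak calling on chrX and on autosomes to respond alike to depth, which was not tested. Heights of single uninduced peaks are printed as they stand, unscaled. Both induced lists held the stem cell sites of the autosomes. Of 14799 autosomal female mESC sites that had no NPC site, 89.4% were found in WT and 92.6% in deltaRepA, next to 35.4% and 34.0% of 27100 NPC sites that had no mESC site.

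The first question was whether the X of cells with intact Xist held fewer open sites than the X of cells whose Xist lacks the A repeat. The WT list held fewer chrX peaks, beyond the difference seen on autosomes. ChrX had 1462 peaks in WT and 2442 in deltaRepA, while the autosomes had 123996 and 140048. Divided by the autosomal ratio, the chrX ratio was 0.676 (0.633 to 0.722), below all 19 autosomes. The autosomes ran from 0.783 on chromosome 12 to 1.47 on chromosome 8. The autosomal spread was as wide without dox, where chromosome 12 stood at 0.756 and chromosome 8 at 1.51. ChrX itself stood at 0.874 (0.826 to 0.925) without dox, inside the autosomal range, with 3 autosomes lower. Dividing the induced by the uninduced ratio removed most of the differences between autosomes, which then ran from 0.958 to 1.08. ChrX stood apart at 0.774 (0.710 to 0.843). The chrX ratio was thus below 1 already before induction, by less than with dox and by no more than the ratios of some autosomes.

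**Figure D1:**
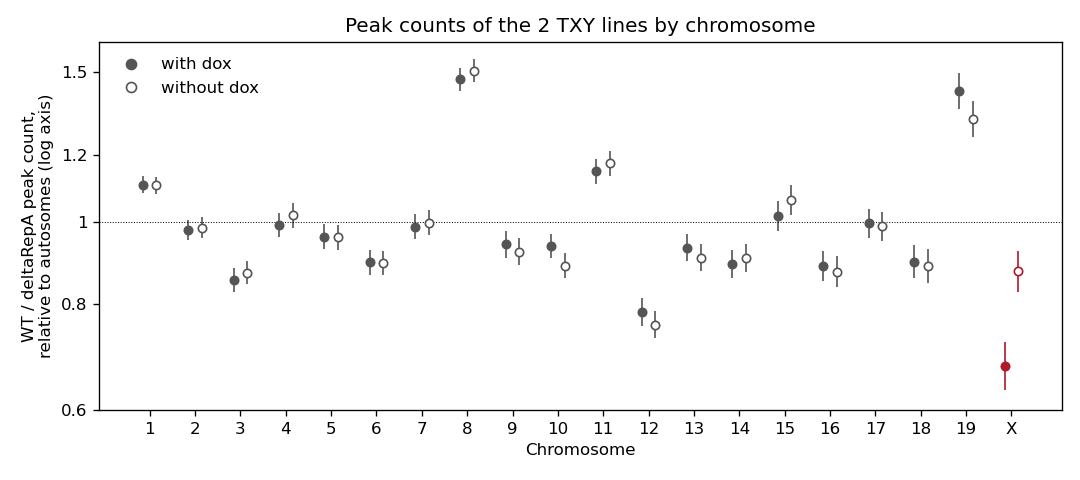
Ratio of WT to deltaRepA peak counts for each chromosome, divided by the ratio over all autosomes (log axis), with dox (filled) and without (open), bars 95% intervals for counting error. Each autosome lies at similar values with and without dox, while chrX moves from 0.874 to 0.676.

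Peaks of the deltaRepA list were looked up in the WT list by an overlap of at least 1 bp. Over chr1 to chr19 and chrX, 43.2% of deltaRepA peaks had no WT peak. On chrX it was 1143 of 2442, so that 53.2% (51.2% to 55.2%) were found in WT, next to an autosomal median of 56.2% and an autosomal range of 49.0% to 73.4%. ChrX peaks are stronger than autosomal peaks in these lists, with a median summit height of 13 against 11 reads in deltaRepA, and strong peaks are found again more often. With each chromosome weighted to the strengths of the chrX peaks, the autosomes ran from 60.3% to 77.5% and chrX, at 53.2%, was the lowest of 20 chromosomes, -12.6 points from the autosomal median of 65.8%. Without dox the same weighted value was -1.73 points, with 8 autosomes lower.

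In the other direction the lists were nested on chrX. Of the WT peaks over all these chromosomes 36.3% had no deltaRepA peak, but on chrX it was 164 of 1462. The share of WT chrX peaks also open in deltaRepA was 88.8% (87.1% to 90.4%), above all 19 autosomes, which ran from 50.6% to 71.0%. At equal strength it stood 14.4 points above the autosomal median, and without dox 4.62 points. ChrX already stood above all 19 autosomes without dox, at 76.0% against 46.6% to 68.9%, and above 18 of them at equal strength. Among WT peaks with −log10 q of at least 5 alone the gap was 3.38 points. The chrX sites open in WT with dox were therefore largely a subset of those open in deltaRepA, and 164 were called in WT alone.

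The 4 TXY lists were then joined into sites, and each site present in 3 lists was looked up in the fourth. Over all chromosomes 13.2% of the sites shared by the 3 other lists were missing from WT with dox. On chrX it was 413 of 1591, or 26.0% (23.8% to 28.2%), next to 12.9% (12.6% to 13.1%) on the autosomes and 17.5% on chromosome 12, the highest autosome. From each of the other 3 lists a smaller share of chrX than of autosomal sites was missing. The sites looked up there had to be present in WT with dox, where weak chrX sites were missing more often than weak autosomal ones, as given below. That choice leaves out weak chrX sites, so these smaller shares are not read as a property of the 3 lists. From deltaRepA with dox 3.84% (2.83% to 5.07%) of chrX sites were missing, next to 8.24% on autosomes and 8.16% over all. From WT without dox it was 2.32% against 6.56%, and from deltaRepA without dox 3.68% against 10.3%. Sites found only in both deltaRepA lists numbered 223 on chrX and sites found only in both WT lists 40, while on the autosomes these numbers were 10417 and 9973. On the autosomes the 2 kinds were thus nearly as frequent as each other, and on chrX they were not. Among sites with −log10 q of at least 5 in the 3 other lists, the excess of chrX over autosomal sites missing from WT with dox was 5.51 points rather than 13.1.

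**Figure D2:**
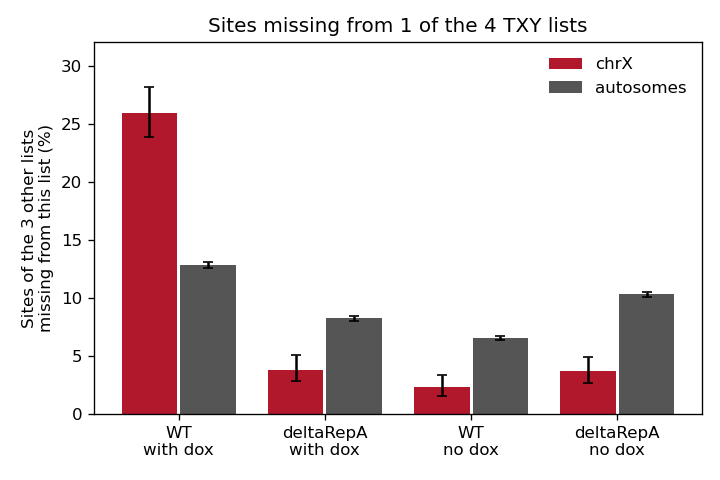
Share of the sites present in 3 TXY lists that were missing from the fourth, on chrX (red) and on autosomes (grey), with 95% intervals for counting error. On chrX 26.0% were missing from WT with dox, and under 4% from each other list, for which sites had to be present in WT with dox.

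Sites called in another line gave the same picture, and neither induced list chose the full set of them. The female mESC list, of peaks reproducible between libraries, held 1369 chrX sites. Of these, 876 were open in both induced lists, 229 in deltaRepA but not in WT, 19 in WT but not in deltaRepA and 245 in neither. Over all chromosomes 4.24% of the mESC sites were found in deltaRepA but not in WT and 2.01% in WT but not in deltaRepA. WT held 895 of the chrX sites and deltaRepA 1105, 81.0% as many, next to 98.4% as many on the autosomes. Relative to autosomes this came to 0.824 (0.753 to 0.901), against 0.935 to 1.03 on single autosomes. Without dox it was 0.992, inside the autosomal range of 0.973 to 1.02. The interval printed with 0.824 treats the WT and deltaRepA counts as independent, though 876 sites are in both. Of the 1022 chrX mESC sites present in the 3 other TXY lists, 83.95% were open in WT with dox, next to 97.7% on the autosomes. These sites, like the NPC sites below, had to be present in deltaRepA with dox. An induced list thus took part in choosing them. For deltaRepA with dox the 3 other lists include WT with dox, so its 870 chrX sites are a different set. Of these, 98.6% were open in deltaRepA with dox, next to 98.9% on the autosomes. Chromatin sites of the NPC line gave a smaller gap. Of chrX sites present in the 3 other lists, 91.0% were open in WT with dox, next to 97.0% on the autosomes. In deltaRepA with dox, again over a different set, it was 98.2% next to 96.9%.

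A site that loses reads leaves a list only if it falls under the calling limit, so sites were sorted by strength. The sorting used the summit height in the uninduced deltaRepA list, which neither induced sample entered. Among chrX sites of both uninduced lists with a height under 10 reads, 67.7% (61.2% to 73.7%) were missing from WT with dox, next to 41.2% on the autosomes. From 10 to 14 reads it was 48.3% against 24.4%, from 15 to 19 reads 25.9% (21.3% to 30.8%) against 8.53%, and from 20 to 29 reads 10.1% (7.23% to 13.6%) against 2.38%. From 30 to 39 reads 1 of 145 chrX sites was missing, and at 40 or more 0 of 119, which allows a share of up to 2.52%. In deltaRepA with dox chrX and autosomal sites were missing at similar shares: 37.1% and 37.5% under 10 reads, 16.2% and 17.3% from 10 to 14, and 3.74% and 3.58% from 15 to 19. The intervals for chrX held the autosomal value in each of these 3 classes.

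The sites that remained were lower in WT as well, strong ones included. Among chrX sites present in all 4 lists with an uninduced height of 40 or more, the median height with dox was 39 reads in WT and 48 in deltaRepA, while autosomal sites of that class had 56 and 53. WT was the lower in 98 of these 119 chrX sites (82.4%) and in 46.1% of the autosomal sites. From 30 to 39 reads the chrX medians were 26 and 33, from 20 to 29 they were 17 and 22, and from 15 to 19 they were 13 and 17. The median ratio of WT to deltaRepA, relative to autosomal sites, lay between 0.752 and 0.794 in the 4 classes from 15 reads up. It was 0.875 from 10 to 14 reads and 1.00 under 10 reads, a class close to the lowest height called, 6 reads in either induced list. Without dox, chrX medians in WT and deltaRepA were 69 and 48 reads at 40 or more, next to autosomal medians of 76 and 50. From 30 to 39 reads they were 49 and 34, next to 52 and 34, and from 20 to 29 they were 36 and 24, next to 37 and 23. In these classes chrX was thus slightly lower in WT before induction too. From 15 to 19 reads the medians were 27 and 17 on both, and below 15 reads chrX was not lower.

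**Figure D3:**
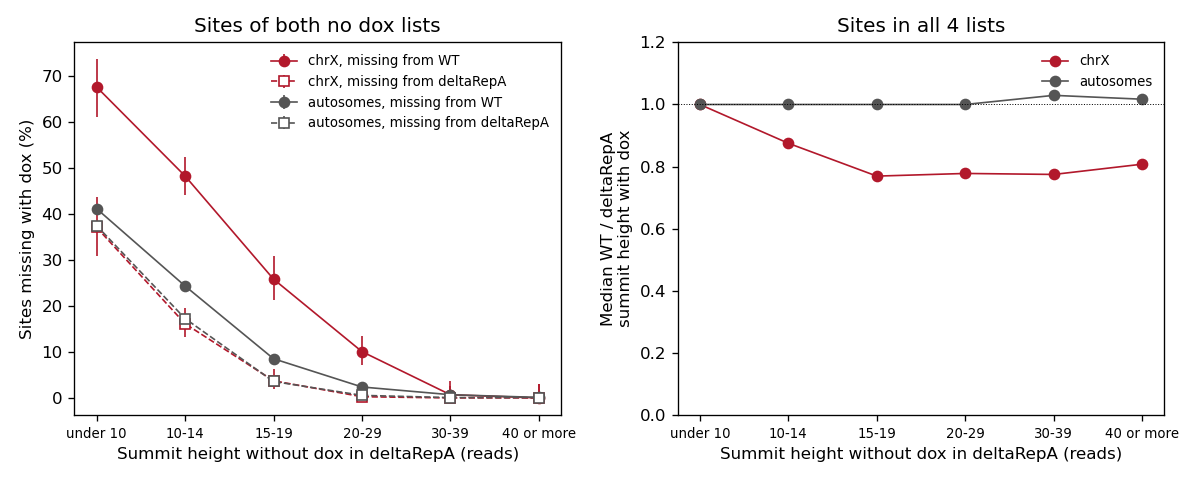
Left, share of sites of both uninduced lists missing with dox from WT (filled) or deltaRepA (open), by summit height without dox in deltaRepA, with 95% intervals for counting error. Right, median ratio of WT to deltaRepA summit height with dox for sites in all 4 lists; from 15 reads up chrX (red) lies between 0.769 and 0.808 while autosomes (grey) lie at 1.00 to 1.03.

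Over all 1279 chrX peaks matched between the 2 induced lists, the median summit height was 15 reads in WT and 19 in deltaRepA, while it was 15 in both over 77789 matched autosomal peaks. Relative to autosomes, chrX stood at 0.810 (0.795 to 0.833), below the autosomal range of 0.878, on chromosome 12, to 1.24, on chromosome 19. Without dox it was 0.962 (0.9375 to 0.976) over 1783 matched peaks. With dox 13.7% of all matched peaks were at least 1.5-fold lower in WT relative to autosomes and 13.4% at least 1.5-fold higher. On chrX 364 of 1279 (28.5%) were lower and 49 (3.83%) higher. On chromosome 12, the lowest autosome, 22.6% were lower. Without dox 11.7% of matched chrX peaks were lower and 5.89% higher, next to 10.4% and 10.7% of autosomal peaks, so the share of higher peaks was already below the autosomal share before induction. Ranked by fold enrichment over the same matched peaks within each list, the median chrX peak stood at percentile 70.4 in deltaRepA and 55.3 in WT. The median change of rank was -6.95 percentiles, next to -1.004 to 3.98 on single autosomes. Without dox it was 0.169 (-0.349 to 0.576), near the autosomal 0.194. Matched chrX peaks were also narrower, with a median width of 429 bp in WT and 537 bp in deltaRepA. Relative to autosomes the width ratio was 0.892, against 0.939 to 1.09 on single autosomes and 0.964 on chrX without dox.

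**Figure D4:**
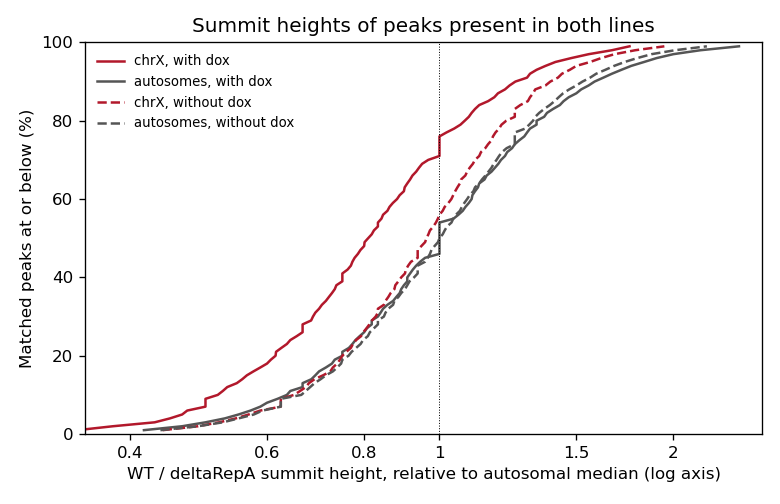
Cumulative distribution of the ratio of WT to deltaRepA summit height for matched peaks, relative to the autosomal median (log axis), with dox (solid) and without (dashed). The median chrX peak with dox lies at 0.810, and without dox, at 0.962, the chrX curve runs close to the autosomal curves.

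Along chrX the difference was uneven. In windows of 10 Mb, 17 of 17 on chrX and 200 of 258 on the autosomes held fewer WT than deltaRepA peaks with dox. Relative to the autosomal ratio 16 of the 17 chrX windows and 143 of the 258 autosomal windows were lower, and the chrX window from 10 to 20 Mb, at 1.03 (0.796 to 1.33), was not. Over all chromosomes 4% of 275 windows had a WT to deltaRepA ratio at least 1.5-fold below the autosomal ratio; on chrX it was 6 of 17 and on the autosomes 5 of 258. In 4 chrX windows, at 80 to 90, 130 to 140, 150 to 160 and 160 to 170 Mb, the ratio lay below that of every autosomal window, the lowest of which was 0.610; with windows of 5 Mb this held for 0 of 32 and with 20 Mb for 3 of 9. ChrX windows held 43 to 122 WT peaks with dox, fewer than most autosomal windows, so their ratios vary more by counting error. The longer stretches described from here on have borders that follow these windows of the same lists. Their intervals thus belong to regions picked by their values. The first 30 Mb differed least. They held 242 WT and 291 deltaRepA peaks, a ratio relative to autosomes of 0.939 (0.792 to 1.11), and 1.04 without dox. Of the sites of the 3 other lists there, 13.1% (8.72% to 18.6%) were missing from WT with dox, close to the 12.9% of the autosomes.

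The window from 80 to 90 Mb differed most. It held 43 WT and 103 deltaRepA peaks, a ratio of 0.472 (0.330 to 0.673), and 37 of 72 shared sites (51.4%, 39.3% to 63.4%) were missing from WT with dox. The highest value among the 258 autosomal windows was 26.4%. Its remaining matched peaks had a median height ratio of 0.678, also the lowest of the 17 windows. The ratio there was already low before induction, at 0.650 (0.497 to 0.849) without dox, where the lowest autosomal window stood at 0.496. The induced value divided by the uninduced one was 0.726 (0.465 to 1.13), an interval that held 1. The share of deltaRepA peaks found in WT fell short of that expected from peak strength by -35.4 points with dox and -14.1 points without.

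The distal part from 130 Mb to the end was lower over a longer stretch, with 435 WT and 848 deltaRepA peaks and a ratio of 0.579 (0.516 to 0.651). Without dox the ratio was 0.843 (0.766 to 0.929), so that the induced value divided by the uninduced one was 0.687, lower than at 80 to 90 Mb. Of 555 shared sites 176 (31.7%, 27.9% to 35.8%) were missing. Within it, 34.8% were missing at 130 to 140 Mb, 33.3% at 150 to 160 Mb and 37.0% at 160 to 170 Mb, but 17.9% (11.2% to 26.6%) at 140 to 150 Mb. The stretches between these regions were intermediate, with ratios of 0.6995 (0.616 to 0.795) from 30 to 80 Mb and 0.697 (0.611 to 0.795) from 90 to 130 Mb.

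At 110 to 120 Mb the direct comparison and the change with dox parted in their values, though not beyond counting error. The ratio there was 0.692 (0.498 to 0.963) with dox but 0.631 without, and the shortfall at equal strength was -22.0 points with dox and -21.0 without. This window was the only one of the 17 in which the ratio was not lower with dox than without. Its induced ratio divided by the uninduced one was 1.10 (0.702 to 1.71). That interval held 1 and also the 0.774 of chrX as a whole. Among the autosomal windows 127 of 258 were lower with dox. The interval of the induced over the uninduced ratio lay below 1 in 4 chrX windows, at 90 to 100, 130 to 140, 150 to 160 and 160 to 170 Mb, and in 0 of the 258 autosomal windows. In 11 of the 17 chrX windows this quotient was below that of every autosomal window, the lowest of which was 0.826. ChrX windows hold fewer peaks than most autosomal windows, so they reach such extremes more easily by counting error.

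**Figure D5:**
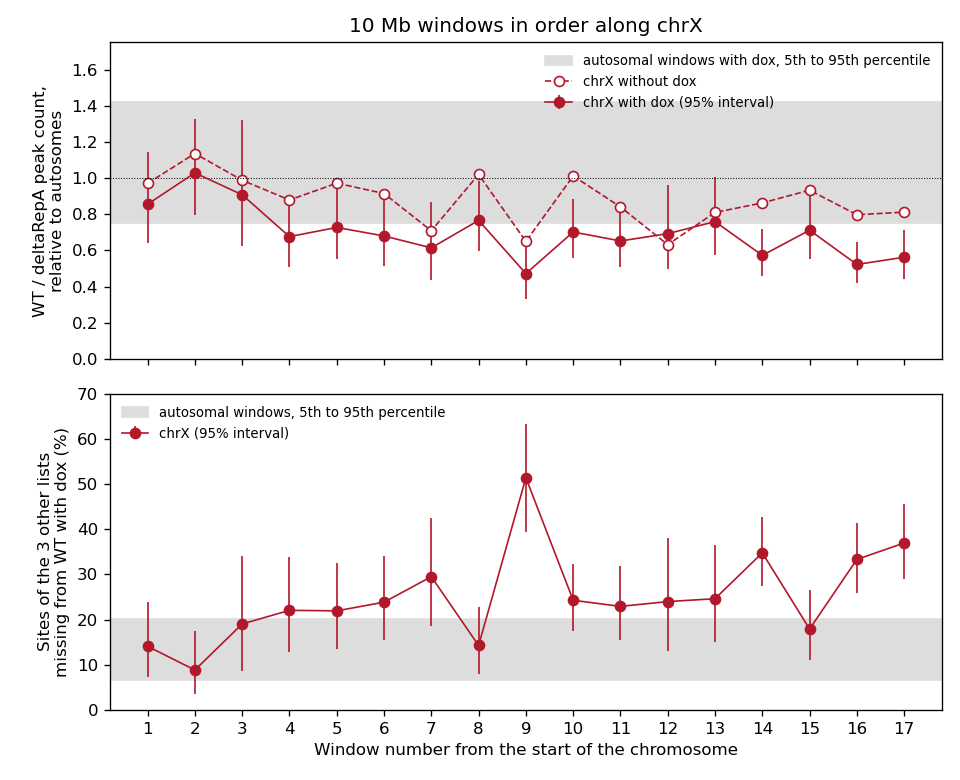
Top, ratio of WT to deltaRepA peak counts relative to autosomes in the 17 windows of 10 Mb in order along chrX, with dox (filled, 95% interval) and without (open); bottom, share of the sites of the 3 other lists missing from WT with dox. Grey bands span the 5th to 95th percentile of autosomal windows; the ninth window reaches 51.4% missing and the second stays at 8.86%.

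At finer scale, 85 stretches of 1 Mb held at least 8 shared sites, and single ones are named by their values. At 137 to 138 Mb 11 of 16 sites were missing from WT with dox and at 82 to 83 Mb 12 of 18, followed by 7 of 12 at 83 to 84 Mb. At 120 to 121 Mb 0 of 13 were missing, which allows up to 23.1%, and at 19 to 20 Mb 0 of 9. In all, 5 of the 85 stretches had 50% or more of their sites missing and 4 had none. These counts and the runs below are of chrX alone, with no autosomal stretches or runs set beside them. Stretches hold as few as 8 sites, so single values vary widely by counting error. The longest run of neighbouring shared sites missing from WT had 6 sites, from 82344100 to 82661165 of chrX (mm9), and the longest run without a loss had 31 sites, from 16471490 to 20349217. Single sites were not lost strictly with their neighbours. After a missing site the next was missing in 28.8% (24.5% to 33.4%) of cases, and after a present site in 24.98% (22.5% to 27.6%), with overlapping intervals. On the autosomes these shares were 13.8% and 12.7%.

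The deltaRepA chrX peaks without a WT peak were weak. Their median summit height was 10 reads and their median width 279 bp, compared with 19 reads and 531 bp for those with a WT peak. Of the 1143, 48.5% were found in WT without dox and 58.5% in deltaRepA without dox, and 19.2% overlapped a female mESC site. On the autosomes, where peaks without a WT peak had a median height of 9 reads, these shares were 28.6%, 34.1% and 1.497%. Peaks that had a WT peak also overlapped mESC sites more often on chrX, 65.6% against 29.9%.

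The 10 strongest of them, ranked by p-value, had 23 to 44 reads in deltaRepA with dox; 9 of the 10 were open in both uninduced lists. The strongest lay on chrX at 135867939 to 135868412, with 44 reads in deltaRepA with dox and 33 without. It had no peak in WT with or without dox, although the uninduced WT list had the higher background. The peak at 154025954 to 154026622 had 35 reads in deltaRepA with dox and 26 without. WT had 30 reads there without dox and no peak with dox. At 66073422 to 66074283 the heights were 31 and 22 reads in deltaRepA with and without dox, 28 in WT without dox, and again no peak in WT with dox. The peak at 99174544 to 99174966 had 25 and 23 reads in deltaRepA and 31 in uninduced WT. That at 82514543 to 82515276, inside the longest run of missing sites, had 25 and 24 reads in deltaRepA and 16 in uninduced WT. Heights of uninduced WT rest on a higher background than those of the other lists. The strongest such peak of each 10 Mb window, 17 peaks of 17 to 44 reads, was open in both uninduced lists in 14 windows. No autosomal peaks chosen alike were set beside this count or the 9 of 10 above. Neither is therefore read as particular to chrX. No gene is assigned to these peaks, since an annotation of build mm9 was not used here.

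The 10 strongest deltaRepA chrX peaks that had a WT peak ran from 59 to 98 reads in deltaRepA and from 29 to 100 in WT. WT was lower in 8 of 10, next to 115 of 190 autosomal peaks chosen alike, with 0 to 9 of 10 on single autosomes. Choosing peaks by their strength in deltaRepA in itself favours a lower value in WT. The peak at 161417978 to 161419037 had 98 reads in deltaRepA and 92 in WT, and that at 103381994 to 103382666 had 93 and 100, both with intervals of the ratio that held 1. By contrast, the peak at 161440905 to 161441493 had 72 reads in deltaRepA and 29 in WT, a ratio of 0.403 (0.252 to 0.628). It lies close to the first of these, which changed little. The peak at 160819472 to 160820666 had 93 and 53 reads, a ratio of 0.570 (0.399 to 0.807), and that at 80054450 to 80054980 had 59 and 36, a ratio of 0.610 (0.392 to 0.939). For these 3 the interval lay below 1, and for the other 7 it held 1. Such intervals are not given here for autosomal peaks. The median ratio of the 10 was 0.806. The 10 strongest peaks of each autosome, chosen alike, had medians from 0.809 on chromosome 13 to 1.26 on chromosome 19, so 10 peaks alone did not set chrX apart.

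The 164 WT chrX peaks without a deltaRepA peak were weak too, with a median of 9 reads and a maximum of 22. Of these, 94 were found in WT without dox and 66 in deltaRepA without dox, and 56 in neither. The strongest, at 25179725 to 25180099, had 22 reads in WT with dox and 27 without and no peak in either deltaRepA list. The next, at 30387250 to 30387599, had 20 and 21 and likewise none in deltaRepA. Of the 10 strongest, 9 were present in WT without dox and 7 lay in the first 40 Mb of chrX, which held 315 of all 1462 WT chrX peaks. No autosomal WT peaks without a deltaRepA peak were set beside these counts. They are therefore not read as particular to chrX.

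Some genes of an inactive X escape silencing, so NPC chrX sites with at least 10 allelic reads were split by their alleles. Among NPC sites present in the 3 other TXY lists, those with at least 20% of reads from each allele numbered 132 and the others 256. From WT with dox 8.33% (4.23% to 14.4%) of the first and 8.20% (5.15% to 12.3%) of the second were missing. Their median heights in uninduced deltaRepA were 23 and 24 reads. No difference between the classes was detectable at these numbers.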

How the data were processed

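ATAC-seq peaks of TXY WT and TXY deltaRepA cells with dox, 1 sample each, were compared. Cutadapt, Bowtie2, MACS2 and mm9 are named in the submitters' processing notes. Versions, settings and any Tn5 shift: not given in the sources used here. Each TXY list deposited by the authors is of merged libraries, per the labels' descriptions, and how many were merged is not stated. It holds each peak's fold enrichment, −log10 p and −log10 q. Per the labels' protocols, reads were paired, 75 bp long. Since the labels of the induced samples also cite the uninduced lists, samples were assigned by title. The source label of the female mESC line reads neural progenitor cells, and its title was used there too. Counts in the female lists deposited by the authors are raw reads per peak and per allele. The other deposited field used was the summit position.

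Summit height n and background b were solved from fold = (n + 1)/(b + 1) and the Poisson p, and 100% of peaks in each list came out whole within 0.02, which is a property of the values and not a statement by the authors. Heights are not scaled to a spike-in. Ratios between lists were taken relative to autosomes, and heights of single peaks are printed unscaled. Sites were matched by overlap of at least 1 bp, and pairs were each other's largest overlap. Equal strength means that autosomal peaks, binned by −log10 p into 10 classes, took the class shares of chrX. Windows of 10 Mb needed at least 20 deltaRepA peaks. Intervals were exact (Clopper-Pearson) for shares, normal on the log scale for ratios of counts, from order statistics for medians and exact binomial for ratios of single heights. Joined sites were counted once. Python 3.11.15, numpy 2.4.6, pandas 2.3.3, scipy 1.17.1 and matplotlib 3.10.9 were used. Height recovery, the share at equal strength and the height ratio of matched peaks were tested on simulated data, and the other steps were not. The simulated height ratio applied no calling limit.

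The comparison, its members and its lists were chosen with earlier results of these data known. Named peaks are, on chrX, the 10 strongest by −log10 p of deltaRepA without a WT peak, of deltaRepA with one, and of WT without a deltaRepA peak. The summit heights, the sites of 3 lists looked up in the fourth and the ratio with dox over that without were added after the lists were seen. The borders of the longer chrX stretches were likewise not fixed beforehand. Gene lists fixed for a reference of build mm9 were not used here, since the tables at hand are of GRCm38.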

Additional observations from a re-analysis of the deposited data

Results flagged for a closer look

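A pair of results stood on opposite sides of 0 in the induced and the uninduced lists, 1 of them only nominally; the differences between conditions were not tested, since each condition is 1 list. The share of deltaRepA chrX peaks found in WT stood -3.04 points from the autosomal median with dox and 6.59 points from it without. At equal peak strength the values were -12.6 and -1.73 points, so the opposite signs do not hold there. The median rank of matched chrX peaks moved by -6.95 percentiles from deltaRepA to WT with dox and by 0.169 percentiles without. That uninduced value had an interval of -0.349 to 0.576, which held 0, and lay near the autosomal 0.194, so it shows no shift in the opposite direction.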

How the results depend on the processing

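No paired analysis was possible because each condition is 1 merged list without replicates. The chrX peak count ratio of 0.676 ran from 0.702 to 0.704 under the stricter q, the median of single autosomes and the reference without chromosomes 8, 11, 12 and 19; without dox it was 0.874. The share of deltaRepA chrX peaks found in WT, -3.04 points as deposited, was -7.27 with −log10 q of at least 5 in deltaRepA, -10.5 with it in both lists, -12.6 at equal strength and -12.6 at equal strength without those 4 chromosomes. It reversed to 6.59 in the no-dox lists; the cause was not tested. The opposite share, 22.7 points, was 3.38 with the stricter q in WT, 25.5 with an overlap of 50%, 14.4 at equal strength, 14.3 at equal strength without the 4 chromosomes, 12.9 without dox and 4.62 without dox at equal strength. The mESC site ratio of 0.824 was 0.808 over sites of both no-dox lists, 0.813 with an overlap of 50% and 0.992 without dox. Windows below every autosomal window in count ratio were 4 of 17, but 0 of 32 at 5 Mb, 3 of 9 at 20 Mb, 2 with the stricter q and 0 without dox. The rank change of -6.95 was -8.62 with −log10 p ranked, -8.52 for pairs of both no-dox lists, and 0.169 (-0.349 to 0.576) without dox, where the interval held 0. The height ratio of 0.810 was 0.788 after subtracting local background, 0.792 for summed heights, 0.805 for pairs of both no-dox lists and 0.962 without dox. The excess of chrX sites missing from WT, 13.1 points, was 5.51 with the stricter q in the 3 other lists, 18.0 with an overlap of 50%, 11.9 without 80 to 90 Mb and 10.0 without chrX from 130 Mb on. The quotient with over without dox, 0.774, was 0.816 with the stricter q and 0.735 for peaks of at least 4-fold enrichment. Each line and condition is 1 list. How depth bears on which sites were called missing was not tested.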
